A study of Mus musculus with 4 samples.

Results

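The regenerating (Reg) proteins are a family of small secreted proteins built on a C-type lectin fold. The genes taken here were Reg1, Reg2, Reg3a, Reg3b, Reg3g and Reg4, chosen as every probe set that the platform annotation gives to these 6 symbols. That rule found 7 probe sets of 22690 on the array, 2 for Reg3b and 1 for each of the other 5 genes, and 0 probe sets named a Reg gene together with another gene. All 6 genes were among the 8036 of 12393 genes called measured, which means a mean scaled signal of at least 100 over the arrays. Reg3d, a family gene that the rule does not list, has 1 probe set, and its values are given beside the others.

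The arrays came from the intestinal mucosa of male mice of the inbred strains A/J and C57BL/6J, 10 weeks old, fed low-fat or high-fat food for 2 weeks. Each of the 4 strain-by-diet groups held 6 mice, and for each group 1 Affymetrix Mouse Expression Array 430A was hybridised with RNA pooled from 2 mice whose weight was average. No genotype other than the strain, and no treatment other than the diet, is given for any group. The A/J strain is widely used as a model of resistance to weight gain from fat in the diet and C57BL/6J as a model of proneness, and the study's title names diet-induced obesity and intestinal lipid metabolism as its subject.

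In the gut, Reg3b and Reg3g are antimicrobial lectins secreted by enterocytes and Paneth cells. Their genes are known to be switched on by bacteria through MyD88 in epithelial cells and by the cytokine IL-22 through STAT3. Reg1 and Reg2 were first known from the exocrine pancreas and the islets, where they rise in injury and regeneration, and Reg1 is also made in the small intestine. Reg4 is known from enteroendocrine and other secretory epithelial cells. The receptor proposed for Reg3 proteins is Extl3, a glycosyltransferase of heparan sulfate synthesis.

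In the RefSeq annotation of GRCm38.p6, Reg3b, Reg3d, Reg3a, Reg2, Reg1 and Reg3g lie in that order on chromosome 6, within 97.99 kb from position 78370885 to 78468874. The stretch holds 6 family genes and 0 other protein-coding genes. Reg4 lies apart, on chromosome 3 from 98222138 to 98236748. The 250 bases before the gene start are shown for 4 neighbouring members. Of these, Reg3b and Reg3g were both lower in A/J, Reg2 was far lower, and Reg1 was almost level. The neighbour Reg3a, whose signals were higher in A/J, is not shown. The stretches shown are RefSeq sequences of GRCm38.p6, which is a C57BL/6J genome. They are written 5′ to 3′ on the strand of the gene, and capitals mark 2 motifs. The first is the STAT binding motif TTCNNNGAA, which reads the same on both strands. The second, searched for after the sequences were seen, is the TATA box motif on the strand of the gene, spelled TATAAA.
Reg3b (chr6:78370635-78370884, plus strand): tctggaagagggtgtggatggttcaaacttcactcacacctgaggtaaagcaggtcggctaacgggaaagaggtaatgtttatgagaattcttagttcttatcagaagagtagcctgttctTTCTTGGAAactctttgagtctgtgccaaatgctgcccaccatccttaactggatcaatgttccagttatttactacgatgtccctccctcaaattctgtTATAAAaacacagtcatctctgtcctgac
Reg3g (chr6:78468875-78469124, minus strand): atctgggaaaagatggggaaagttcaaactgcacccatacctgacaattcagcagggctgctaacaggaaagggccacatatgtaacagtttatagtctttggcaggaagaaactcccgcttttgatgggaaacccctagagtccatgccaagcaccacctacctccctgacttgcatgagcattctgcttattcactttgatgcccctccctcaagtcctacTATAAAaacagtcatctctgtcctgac
Reg2 (chr6:78404905-78405154, plus strand): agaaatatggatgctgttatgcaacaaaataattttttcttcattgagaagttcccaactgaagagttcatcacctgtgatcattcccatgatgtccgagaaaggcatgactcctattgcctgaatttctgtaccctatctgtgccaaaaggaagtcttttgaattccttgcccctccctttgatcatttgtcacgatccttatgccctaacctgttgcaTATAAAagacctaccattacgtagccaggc
Reg1 (chr6:78425733-78425982, plus strand): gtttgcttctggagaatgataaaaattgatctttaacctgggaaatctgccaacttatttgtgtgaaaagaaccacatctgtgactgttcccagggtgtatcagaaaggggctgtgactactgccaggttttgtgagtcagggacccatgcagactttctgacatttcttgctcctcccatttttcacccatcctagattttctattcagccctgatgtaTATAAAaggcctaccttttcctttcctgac

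The Reg3b and Reg3g stretches had 70.8% identical bases in a global alignment, the highest of 21 pairs among the 7 family genes, and Reg1 and Reg2 followed with 64.8%. The lowest pair, Reg2 and Reg4, which lie on different chromosomes, still had 56.8%, over 297 columns. TATAAA began 27 to 30 bases before the gene start in these 4 genes and had no match in the stretches of Reg3a, Reg4 and Reg3d, while 7.59% of 32851 RefSeq promoter stretches of this length hold it on the strand of the gene and 12.4% on either strand. The Reg3g stretch also holds it 1 time on the other strand. TTCNNNGAA had a match in Reg3b, as TTCTTGGAA beginning 129 bases before the gene start, and in Reg3d, and 7.02% of all the stretches hold it. These are letter matches in a short window, and the 2 motifs do not overlap in any of the 4 stretches shown.

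Every value below is a scaled signal: the deposited signal multiplied by 1 factor per array, so that the trimmed mean of each array is 500. The low-fat and high-fat factors were 2.72 and 2.80 for A/J and 3.08 and 3.41 for C57BL/6J. Where values of 4 arrays follow without labels, they keep that order. With 1 array per group no spread between replicates could be had, and precision is limited by that number. A ratio of 1 array to 1 array therefore has no test. Tests of strain and of diet come from limma, fitted with both terms to all 4 arrays, and their error is the part of each gene's signal in which the diet ratio differs between the strains, moderated over all genes. These p-values rest on 4 pools and measure no spread between mice or between pools of the same group.

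Some properties of the arrays move with the groups. The C57BL/6J low-fat array gave 11010 for the 5′ end of 18S ribosomal RNA, against 84.4 to 1675 on the others. The spike-in control CreX was 12094 and 11988 on the A/J arrays and 19458 and 21250 on the C57BL/6J arrays. A handling effect that runs with strain, or a strain's own sequence under a probe, cannot be told apart from a difference in RNA. The A/J high-fat array had a summed signal of 14136 over the 23 exocrine pancreas genes found, against 125846 to 198268 on the other 3. The tissue label was borne out by enterocyte markers: 10 of 12 listed genes were found, 0 of them lay under 100 on any array, and their sum ranged from 137292 to 144467, with 1 of 10 lower in A/J by the test described above. In such mucosa, fewer cells of a type and less RNA per cell cannot be told apart.

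**Figure D1:**
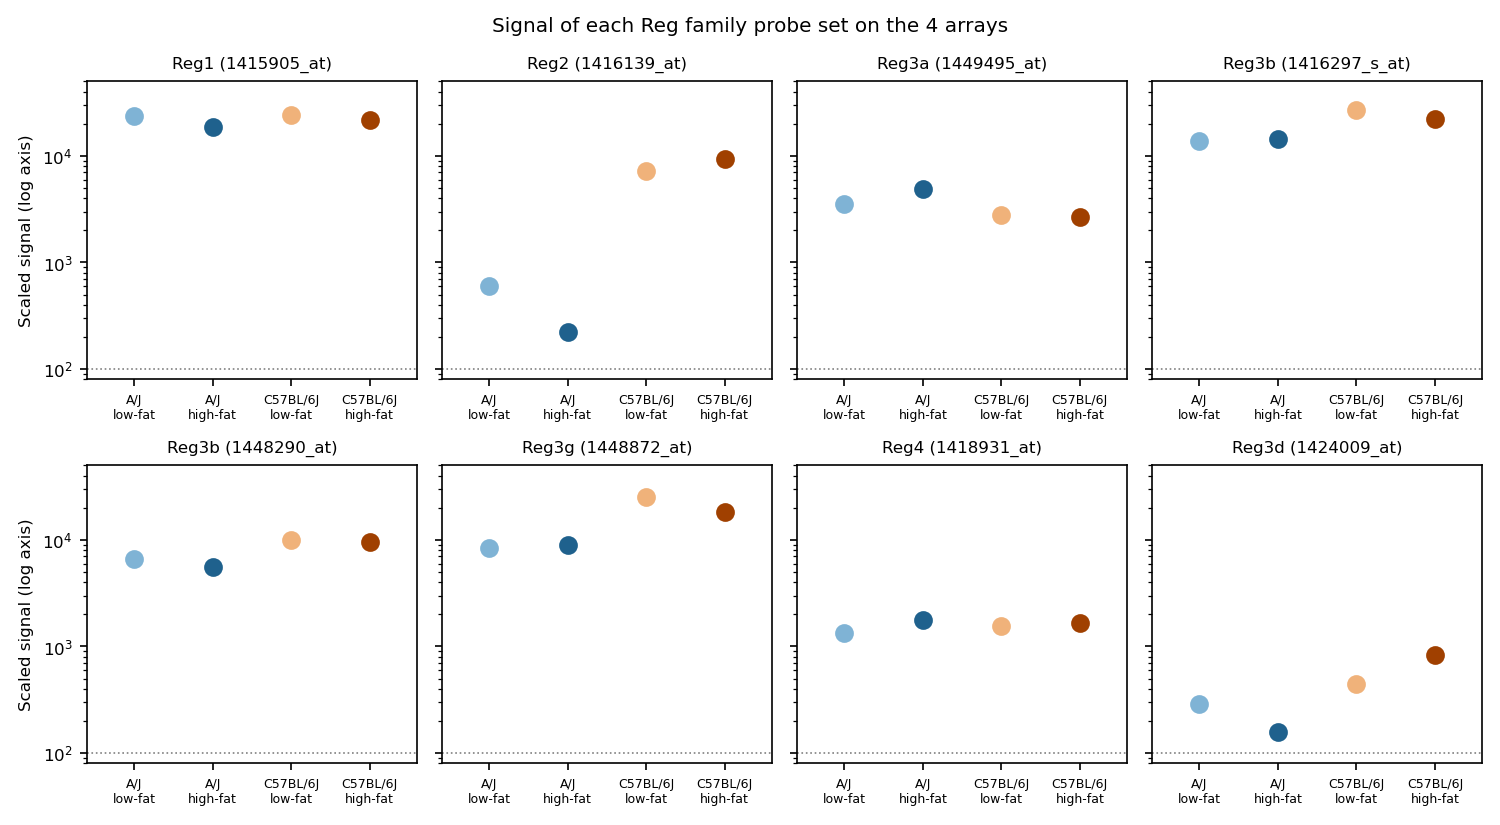
Scaled signal (log axis) of each Reg family probe set on the 4 arrays, 1 point per array; the dotted line marks the floor of 100, and levels of different probe sets are not comparable. Reg2 lies at 602 and 222 on the A/J arrays and at 7205 and 9288 on the C57BL/6J arrays, while Reg1 stays between 18635 and 24366.

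The first comparison set the strain that resists diet-induced obesity against the strain that is prone to it. Reg2, Reg3g and Reg3b were lower in A/J by the test over both diets, and 0 of the 6 members were higher. Over all genes 3.68% were called lower and 3.83% higher, and the median strain difference was 0.04 on the log2 scale, beside -0.46 for the 6 members.

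Reg2 had signals of 602 (low-fat) and 222 (high-fat) in A/J, against 7205 (low-fat) and 9288 (high-fat) in C57BL/6J. The strains did not overlap, and the lower C57BL/6J array was far above the higher A/J array. Here and below, with so few arrays, such a separation only describes the values. The share of all genes with it was not counted. Reg2 was 11.97-fold lower in A/J on low-fat and 41.9-fold lower on high-fat. Over both diets it was lower by 22.4-fold, a log2 difference of -4.49 (SE 0.325, 95% interval -5.19 to -3.78, limma adjusted p = 5.69e-06). Its log2 ratios on the single diets, -3.58 and -5.39, both lie outside that interval. The SE is drawn toward the spread of other genes, so the interval and the p-value overstate the precision for Reg2. Among the 8036 genes, 1 had a lower strain estimate than Reg2.

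Reg3g, the lectin that acts on Gram-positive bacteria, had A/J signals of 8314 with low-fat and 8957 with high-fat food. In C57BL/6J it was 25163 and 18314, respectively. The A/J arrays were both below the C57BL/6J arrays, by 3.03-fold on low-fat and 2.04-fold on high-fat. The log2 difference over both diets was -1.31 (SE 0.211, 95% interval -1.77 to -0.86, limma adjusted p = 0.00217).

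Reg3b, the related lectin that acts on Gram-negative bacteria, gave low-fat and high-fat signals of 13818 and 14532 in A/J and of 27086 and 22339 in C57BL/6J in its brighter probe set. The strains again did not overlap. The ratio was 1.96-fold on low-fat and 1.54-fold on high-fat, both under the 2-fold used for pairs of arrays, and the log2 difference over both diets was -0.80 (SE 0.201, limma adjusted p = 0.0325).

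The brighter Reg3b probe set carries the platform's mark for sequence shared between transcripts. The other Reg3b probe set, without that mark, gave 6678 and 5596 in A/J and 9956 and 9662 in C57BL/6J. It too was lower on both A/J arrays, by 1.49-fold on low-fat and 1.73-fold on high-fat. Its log2 difference of -0.68 did not pass the test (SE 0.197, limma adjusted p = 0.0839, in a fit with every probe set as its own row). In that same fit the brighter probe set did not pass either (log2 difference -0.80, limma adjusted p = 0.0542). The Reg3b call held in 2 of 14 alternative settings, against 8 of 14 for Reg2 and for Reg3g.

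Reg3a, another Reg3 lectin, ran the other way, with 3508 and 4917 on the low-fat and high-fat arrays of A/J and 2815 and 2688 on those of C57BL/6J. Both A/J arrays were above both C57BL/6J arrays, by 1.25-fold on low-fat and 1.83-fold on high-fat. The log2 difference of 0.59 did not pass the test (SE 0.210, 95% interval 0.14 to 1.05, limma adjusted p = 0.116).

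Reg1, a product of the pancreas and small intestine, had 23900 (low-fat) and 18635 (high-fat) in A/J and 24366 (low-fat) and 21562 (high-fat) in C57BL/6J. The arrays of the strains were interleaved, and the range over the 4 arrays was 1.31-fold. Reg4, of the secretory cells, had 1346, 1775, 1548 and 1648 in that order, and the strains were interleaved too, over a range of 1.32-fold. Their log2 strain differences were -0.12 (95% interval -0.55 to 0.31, limma adjusted p = 0.787) and -0.05 (95% interval -0.48 to 0.39, limma adjusted p = 0.921). The sign of both flipped to higher in A/J when the arrays were left unscaled.

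Reg3d, outside the rule, had A/J signals of 289 with low-fat and 159 with high-fat food, and C57BL/6J signals of 447 and 833. The strains did not overlap, at 1.55-fold on low-fat and 5.25-fold on high-fat, and the log2 difference was -1.51 (SE 0.320, limma adjusted p = 0.0126).

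**Figure D2:**
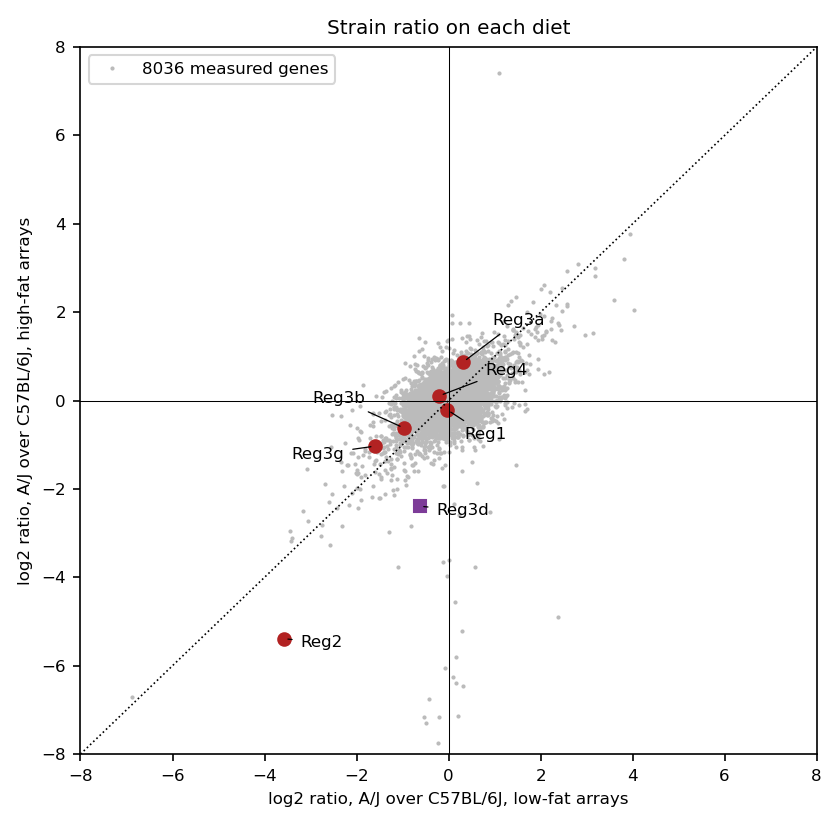
The log2 ratio of A/J over C57BL/6J on the low-fat arrays (horizontal) and on the high-fat arrays (vertical) for 8036 measured genes in grey, with the 6 members as red circles and Reg3d as a purple square; the dotted line marks equal ratios. Reg2 lies at -3.58 and -5.39, Reg3g at -1.60 and -1.03, and Reg1 and Reg4 lie near the origin.

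Counted by size on each diet, 2 of 6 members, Reg2 and Reg3g, were at least 2-fold lower in A/J on low-fat, where 2.64% of all genes were. On high-fat the same 2 genes were at least 2-fold lower, beside 2.38% of all genes. With 6 genes, a count of 2 is a description of these genes and not a statement about the family.

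The strain calls rest on few arrays. In fits of strain alone that left out 1 array at a time, Reg2 stayed between -5.21 and -3.76, Reg3g between -1.54 and -1.09 and Reg3b between -0.93 and -0.66, and with any of the 4 arrays left out 0 members and 0 genes passed, while 3 to 4 members had an unadjusted p under 0.05 in limma. In these fits the strain with 1 array left is assumed to vary like the other. Without the A/J high-fat array, the one low in pancreas genes, Reg2 was -3.76 (limma adjusted p = 0.370). Without the C57BL/6J low-fat array, the one with the 18S signal, Reg3g was -1.09 (limma adjusted p = 0.450) and Reg3b -0.66 (limma adjusted p = 0.483).

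The second comparison set the high-fat arrays against the low-fat arrays. By the test over both strains 0 of 6 members changed, and 0 had an unadjusted p under 0.05 in limma, where 0.61% of all genes were called and 751 had an unadjusted p under 0.05. The members' diet differences ran from -0.54 for Reg2 to 0.24 for Reg4 on the log2 scale. For the brighter Reg3b probe set the 95% interval was -0.54 to 0.33 and for Reg3g -0.63 to 0.28. The data therefore leave room for changes of that size either way.

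In A/J, Reg2 was 2.71-fold lower on high-fat, at 222 against 602, and was the 1 member of 6 past 2-fold, beside 1.05% of all genes lower by as much. The other members differed between the A/J diets by 1.05-fold to 1.40-fold. Reg3a and Reg4 were the higher ones on high-fat, by 1.40-fold and 1.32-fold, and Reg1 was 1.28-fold lower. Of the antimicrobial pair, Reg3g and the brighter Reg3b probe set were within 1.08-fold. The other Reg3b probe set was 1.19-fold lower on high-fat.

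In C57BL/6J, 0 of 6 members were 2-fold apart between the diets, beside 1.69% of all genes in either direction. Reg2 was 1.29-fold higher on high-fat, at 9288 against 7205. Reg3g was 1.37-fold lower, Reg3b 1.21-fold lower in its brighter probe set (1.03-fold in the other) and Reg1 1.13-fold lower. Reg3a and Reg4 lay within 1.06-fold.

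The diet ratio of Reg2 thus had opposite signs in the strains, -1.44 in A/J and 0.37 in C57BL/6J on the log2 scale. The difference of the ratios was -1.81, or 3.499-fold, and 2.13% of all genes had a difference at least 2-fold that way. The other 5 members, Reg3b by its brighter probe set, had differences between -0.18 and 0.57. The other Reg3b probe set was at -0.21. Reg3d, outside the rule, behaved like Reg2 here, at 1.82-fold lower in A/J and 1.86-fold higher in C57BL/6J. No residual degree of freedom is left to test these differences.

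**Figure D3:**
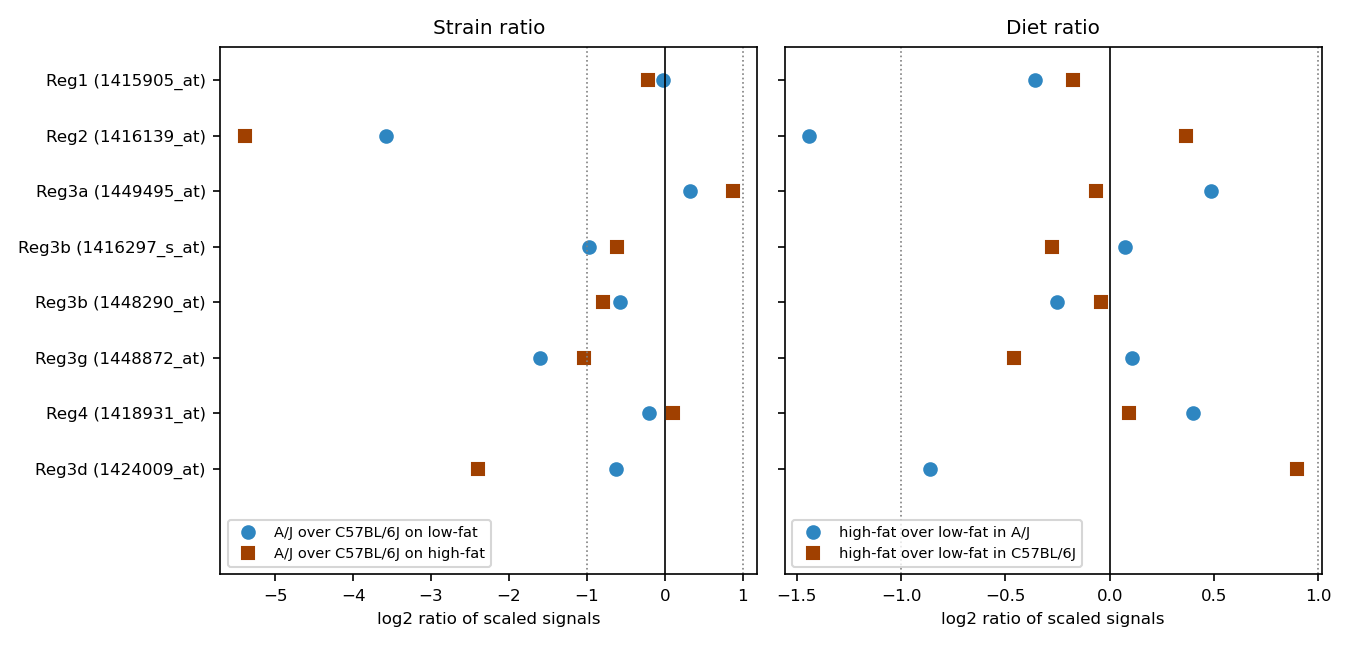
The log2 ratio of scaled signals for each Reg family probe set, between strains on each diet (left) and between diets in each strain (right), 1 point per pair of arrays; dotted lines mark 2-fold. Reg2 is the only member whose A/J diet ratio passes 2-fold, at -1.44, and the 2 Reg3b probe sets lie on the same side in both strain ratios.

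Because Reg1 and Reg2 are pancreatic products, their signals are set beside the exocrine pancreas list, of which 23 of 31 genes were found and 21 measured. Between the low-fat arrays the list's sum differed by 1.04-fold, with 1 of 21 genes past 2-fold (lower in A/J), while Reg2 was 11.97-fold lower. Between the A/J diets the sum was 8.90-fold lower on high-fat, with 18 of 21 genes past 2-fold, while Reg2 was 2.71-fold lower and Reg1 1.28-fold lower. Among the defining genes, elastase Cela3b went from 10903 to 91.4, carboxypeptidase Cpa1 from 9945 to 17.4 and elastase Cela2a from 8259 to 75.1, with 15 of the 23 genes under 100 on that array. Between the C57BL/6J diets the sum was 1.52-fold higher on high-fat and Reg2 1.29-fold higher. Between the high-fat arrays the sum was 14.03-fold lower in A/J, with 19 of 21 genes past 2-fold (all lower). The median log2 ratio there was -5.20, while Reg2 was at -5.39 (41.9-fold lower) and Reg1 was 1.16-fold lower. Spink1 gave 10614 of the summed 14136 on A/J high-fat, and its signals were 12222, 10614, 14941 and 12674. The sum ratios that involve that array therefore understate the fall of most listed genes. Between the A/J diets the list's median log2 ratio was -4.65, beside -1.44 for Reg2. So Reg2 had the direction of the pancreas list's sum across diets in each strain and between strains on high-fat, and on low-fat it was 11.97-fold lower where the sums were 1.04-fold apart. The list's part in any of these Reg2 ratios, that on low-fat included, was not tested. Reg3d also followed the list across diets.

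The stomach list summed to 3674 (low-fat) and 1636 (high-fat) in A/J and to 2247 (low-fat) and 9847 (high-fat) in C57BL/6J. Its gastrokine genes Gkn1 and Gkn2 were at 1220 and 3001 on the last array and under 100 on the low-fat array of that strain and on A/J high-fat. Of its 11 genes found, 8 lay under 100 on A/J high-fat and 5 on C57BL/6J high-fat. Its part in any Reg value was not tested.

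**Figure D4:**
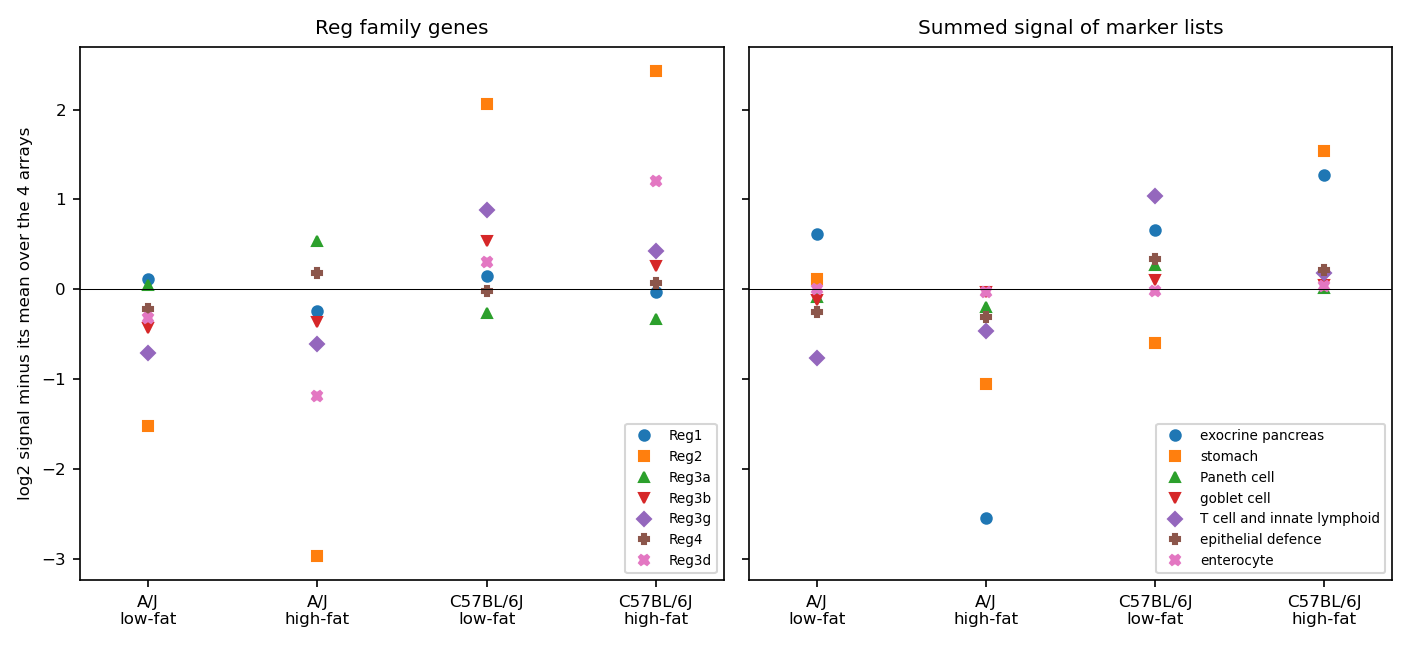
The log2 signal minus its own mean over the 4 arrays, for the Reg genes (left) and for the summed signal of 7 marker lists (right), 1 point per array. The pancreas sum is lowest on A/J high-fat and nearly equal on the low-fat arrays, Reg2 is low on both A/J arrays, and the sum of T cell and innate lymphoid genes is highest on C57BL/6J low-fat, as Reg3g is.

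The genes that sense bacteria and carry the IL-22 and STAT3 signal were described by 2 lists. Of 25 genes of IL-22, IL-6 and STAT3 signalling, 20 were found and 14 measured, and 1 of 14 was lower in A/J by the test, with a median strain difference of -0.12 beside 0.04 over all genes. That gene was Bcl3, a nuclear partner of NF-kappa-B and a STAT3 target, at 534 and 441 on the A/J arrays and 935 and 1080 on the C57BL/6J arrays (log2 difference -1.05, limma adjusted p = 0.00820). The kinase gene Tyk2 was at 0.56, higher in A/J (limma adjusted p = 0.122), and Il6st at -0.46 (limma adjusted p = 0.201), neither past the test. Stat3 itself was 2000 and 2015 in A/J and 2921 and 2202 in C57BL/6J. Its difference of -0.34 did not pass (limma adjusted p = 0.375). Of 22 genes of Toll-like receptor and MyD88 signalling, 17 were found and 10 measured, with a median of 0.02. In this list 2 of 10 were lower in A/J, the cytokine Il18 at -0.90 (limma adjusted p = 0.0140) and Ly96, the cofactor of the endotoxin receptor, at -0.97 (limma adjusted p = 0.0134, with the A/J high-fat signal set to the floor). Myd88 was level, between 818 and 894 on the 4 arrays.

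A further list held epithelial defence genes known to respond to microbes or IL-22. Of 26 listed, 22 were found and 11 measured, and 6 of 11 were lower by the test and 0 higher, beside 3.68% of all genes lower. The median strain difference was -0.85, beside 0.04 over all genes. Of the 6, 3 (Nos2, Duoxa2 and Muc4) were under 100 on both A/J arrays and counted as measured only through C57BL/6J. Nos2, the inducible nitric oxide synthase, had 539.7 and 539.9 on the C57BL/6J arrays and was under 100 on both A/J arrays, so against that floor it was at least 5.397-fold lower. Duoxa2, the maturation factor of the oxidase Duox2, was under 100 on both A/J arrays, against 252 and 312 in C57BL/6J. The chemokine Ccl20 was 482 and 203 in A/J and 1040 and 2768 in C57BL/6J. Ubd, a ubiquitin-like modifier induced by cytokines, was 431 and 936 in A/J and 2180 and 1193 in C57BL/6J. The mucosal barrier protein Lypd8 had 12065 and 14183 in A/J and 24339 and 20568 in C57BL/6J. Genes measured only through C57BL/6J could only be seen to differ, so the count and the median of this list are no support for a difference. By diet, 0 of the 11 changed in limma.

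Cell markers gave a mixed picture beside the Reg3 genes. T cell and innate lymphoid genes, among them the cells that make IL-22, summed to 14407 (low-fat) and 7954 (high-fat) in C57BL/6J and to 4126 (low-fat) and 5094 (high-fat) in A/J, and 3 of 10 were lower in A/J by the test. These were the granzymes Gzma and Gzmb and the chemokine Ccl5, with Gzma at 810 and 907 in A/J and 5190 and 3352 in C57BL/6J. The CD3 chain genes of the T cell receptor complex, Cd3d, Cd3e and Cd3g, did not pass. Reg3g had the same order of arrays as the list's sum, with C57BL/6J low-fat highest and A/J low-fat lowest. Gene by gene the list was less alike. On high-fat its median log2 strain ratio was 0.09, with 1 of 10 genes at least 2-fold lower in A/J, while Reg3g was at -1.03. Cd3d, Cd3e and Cd3g were higher in A/J there, at 0.18, 0.58 and 0.11. Paneth cell genes had a sum of 17108 to 23731 with 0 of 4 called and a median strain difference of -0.54 on the log2 scale. The Paneth lysozyme Lyz1, the brightest of them, was at -0.18. Mmp7, Itln1 and Pla2g2a were at -0.54, -0.54 and -0.55, lower in A/J without passing the test. For the Paneth list only 6 of 20 genes were found. Goblet cell genes had a sum of 74834 to 87163, with Spink4 and Klk1 lower in A/J among 9 measured, and enteroendocrine genes 12155 to 14876 with 0 of 15 called. Neutrophil and macrophage genes had a sum of 6354 to 7284, and 1 of 5 was lower in A/J, the neutrophil receptor gene Csf3r at -0.71 (limma adjusted p = 0.0488, with the A/J low-fat signal set to the floor). Proximal small intestine genes summed to 56086 to 62224, with 0 of 8 called for strain. Distal genes summed to 19709 to 30343, with 3 of 6 measured genes higher in A/J by the test. Among these were cubilin (Cubn) at 1.83 on the log2 scale and the gut peptide guanylin (Guca2a) at 9279 and 6236 in A/J against 3509 and 2055 in C57BL/6J. Of the other 3, Nts was at 0.69, Mep1b at -0.03 and Pyy at -0.33, none past the test. The distal genes Fabp6 and Slc10a2 were found but lay under 100 on every array. The part of these cell and region differences in the Reg values was not tested.

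On the receptor side, Extl3 was level, with signals of 424.9 and 392.1 in A/J and 380 and 361 in C57BL/6J and a log2 strain difference of 0.14 (SE 0.194, limma adjusted p = 0.741). The epidermal growth factor receptor gene Egfr, through which Reg4 has been proposed to signal, had 565, 571, 638 and 668 in the order used above. Of the relatives of Extl3, Ext2 was higher in A/J at 0.75 (limma adjusted p = 0.0402), Ext1 was at -0.58 and Extl2 at 0.57, neither past the test, and Extl1 was not measured.

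Genes with the pattern most like a member were ranked for the 2 members with a range of at least 2-fold, by the root mean square difference of log2 signals over the 4 arrays, each centred on its own mean. Nearest to Reg3g were Tap1, the peptide transporter of antigen presentation, at 0.071, the sorting receptor Sorl1 at 0.075, the transcription factor Cebpd at 0.078, the mitochondrial transporter Abcb10 at 0.096, and Mndal, of the interferon-induced HIN-200 family, at 0.099. Mndal was under 100 on both A/J arrays, so its distance is set by the floor and it was measured only through C57BL/6J. Tap1 had 674 and 657 in A/J and 1871 and 1299 in C57BL/6J. With 4 arrays such likeness is common: 75 of 8029 genes lay within 0.25 of Reg3g. Reg2 had no close match, and its nearest were the ribosomal protein gene Rps4l at 0.79, the NF-kappa-B adaptor Tifa at 0.84, Bst1 at 0.86, Rpgrip1 at 0.87 and the histocompatibility gene H2-K1 at 0.90. Rpgrip1 too was under 100 on both A/J arrays, with its distance set by the floor, and was measured only through C57BL/6J. Within the family, Reg3b in its brighter probe set and Reg3g were 0.268 apart, the closest pair after centring. Reg1 and Reg4 came next at 0.287. The Reg3b probe set without the mark for shared sequence was not entered, so this order holds for the marked probe set only. Reg2 and Reg3a were 2.63 apart, the farthest.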

How the data were processed

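Signals were measured on 4 arrays, 1 per strain and diet, from pooled RNA. Per the labels' protocols, biotinylated cRNA was hybridised and the authors computed a linear signal intensity per probe set with Microarray Suite 5.0 at default parameters. The sources used here give no common scaling target.

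Probe sets were named from the platform annotation (20380 with 1 gene, 691 with several, 1555 with none, after 64 controls were set aside), and 20351 matched RefSeq. Each array was scaled to a mean of 500, trimmed by 2% at each end, signals under 100 were set to 100, and log2 was taken. The brightest probe set stood for a gene, and genes with a mean of at least 100 were tested. limma 3.58.1 (R 4.3.3) fitted additive strain and diet terms with 1 residual degree of freedom and Benjamini-Hochberg adjustment over 8036 genes; calls are at an adjusted p under 0.05. Tested on simulated data, the fit recovered known changes, but its share of false calls was often above the nominal one. Promoters were aligned with Biopython 1.88 in Python 3.11.15. Members and lists were chosen with earlier results of these data known. Genes were named by a written rule: all members, the 5 genes nearest in pattern to a member ranging at least 2-fold, the receptor list, and up to 4 genes per list with the largest ratios. Myd88, Lypd8, Muc4, Cd3d, Cd3e, Cd3g, Spink1, Pyy, Mep1b, Fabp6 and Slc10a2 were named outside it, after their values were seen.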

Additional observations from a re-analysis of the deposited data

Results flagged for a closer look

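Diet ratios pointed in opposite directions in the strains for 4 probe sets, each from 1 array per diet and strain, and the difference was not tested. Reg2 had a log2 diet ratio of -1.44 in A/J and 0.37 in C57BL/6J, a difference of -1.81. For Reg3g the ratios were 0.11 and -0.46, a difference of 0.57, and for Reg3a 0.49 and -0.07, a difference of 0.55. The brighter Reg3b probe set had 0.07 and -0.28, a difference of 0.35, whereas the other Reg3b probe set was lower on high-fat in both strains, at -0.26 and -0.04.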

How the results depend on the processing

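The 3 strain calls among the members were 0 with a floor of 200 and 0 without the filter on mean signal (1 and 0 members at an unadjusted p under 0.05 in limma), although no member's signal is under 200 and the estimates did not move; the prior degrees of freedom of the moderated variance were 0.502 and 0.375 there, against 11.1 in the fit reported. Fits of 1 factor that dropped each array in turn gave 0 to 0 calls for strain (3 to 4 members at an unadjusted p under 0.05 in limma) and 0 to 0 for diet. Reg2 and Reg3g kept their calls in the other 8 alternatives for strain, while Reg3b kept its call only with a pseudocount of 50 and with the intensity trend (adjusted p from 0.000458 to 0.483 over its 14 alternatives in limma), and the trend added Reg3a (adjusted p = 0.0213). On high-fat, quantile normalization left 1 member at least 2-fold lower, since Reg3g was at -0.86. Without scaling Reg3g was at -0.75 there and Reg3a at 1.15, and the median of all genes moved to 0.32 (0.20 on low-fat). Diet called 0 members under every alternative. Over all genes, strain calls of 604 became 342 with a floor of 50, 144 with 1 factor and 0 with a floor of 200, without the filter, or without any 1 array (1316, 1434 and 775 to 1016 genes at an unadjusted p under 0.05 in limma); unscaled they were 620 higher and 144 lower, against 308 and 296. Unscaled, 400 genes were 2-fold higher and 155 lower on low-fat (241 and 212 as reported), 383 and 120 on high-fat (155 and 191), 60 and 100 between the C57BL/6J diets (82 and 54), and 234 and 126 for the difference of diet ratios (137 and 171). Diet calls of 49 were 123 with the trend, 103 with the pseudocount, 12 to 22 unscaled, with quantile normalization, with a floor of 50 or with either probe set rule, and 0 with a floor of 200 (825 at an unadjusted p under 0.05 in limma), without the filter (979) or with 1 factor (213). Genes past 2-fold numbered 712 on low-fat and 539 on high-fat between strains when every probe set counted (453 and 346 as reported), and a floor of 200 gave 87 and 81 between diets in A/J and C57BL/6J (148 and 136 as reported). The difference of diet ratios passed 2-fold in 308 genes, in 165 with that floor and in 510 probe sets; the C57BL/6J diets differed so in 205 probe sets. No paired analysis was possible because each group has 1 array. Sampling depth does not apply to arrays, and faint signals are limited by the floor.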
